A study of Drosophila melanogaster with 4 samples.

Results

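The transcripts of wild-type w1118 Drosophila melanogaster embryos, aged 6 to 8 h after egg laying, were described from the w1118 channel of 4 two-colour oligonucleotide arrays. They are 4 of the 8 channels that were scanned. Of 13080 genes that could be named on the array, 9009 were detected, that is, had a probe well above background in the w1118 channel of every array. Genes were ranked by their mean signal in w1118, with no reference to the other channel.

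The study compared embryos homozygous for ectopic expression of the microRNA miR-3, in a w1118 genetic background, with w1118 embryos. Both genotypes were treated alike: eggs were laid over 2 h at 25 °C, the embryos were left to age, and RNA of whole embryos was taken. Each genotype had 3 biological replicates isolated separately, and replicate 1 was hybridised a second time with the dyes exchanged. Only the w1118 RNA is described here: it carried Cy5 on 3 arrays (replicates 1, 2 and 3) and Cy3 on 1 array (replicate 1 again). w1118 carries a white mutation and is a common laboratory wild type, and an RNA sample of whole embryos averages all tissues, so fewer cells of a type and less RNA per cell cannot be told apart. The fitted dye normalization of the scanner software used both channels, so the w1118 values are not wholly independent of the other embryos.

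At this age a fly embryo has passed gastrulation. For most of this window the germ band is extended. Neuroblasts leave the ectoderm and divide, the mesoderm splits into heart, visceral and somatic muscle fates, and the tracheal placodes invaginate. Maternal messages have largely given way to transcripts made by the embryo itself, while muscle fibres, synapses and cuticle have yet to be built. Ribosomes, mitochondria and the cell cycle machinery run in nearly every cell, so their messages are the usual frame against which those of spatially restricted regulators are read.

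Levels are given as the processed signal of a probe, or as its log2 distance from the 75th percentile of its array. A gene's value is the mean over its detected probes, and its error is the SD over the 3 replicates. The percentile of a gene is its place among the 9009 detected genes, where a higher percentile is a brighter signal. The brightest 10% of them, 900 genes, are called abundant and the other 8109 moderate. A further 1342 genes had a probe above background on some arrays but no probe on all 4, and 2729 had none on any array; these last are called undetected. Against all 13080 genes, the background shares are 68.9% detected, 6.88% abundant and 20.9% undetected. Every count of a list below is to be read against these shares.

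Detection and ranks were alike in the 4 hybridisations. Between 57.1% and 64.3% of probes were well above background, no w1118 spot was saturated, and 0 to 2 of 153 negative control spots passed the same test. The correlation across genes between any pair of arrays lay between 0.996 and 0.999; genes are not independent replicates, so this describes the arrays only. The median SD over replicates was 0.08 on the log2 scale, and 843 of the 900 abundant genes were in the top 10% of every replicate.

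**Figure D1:**
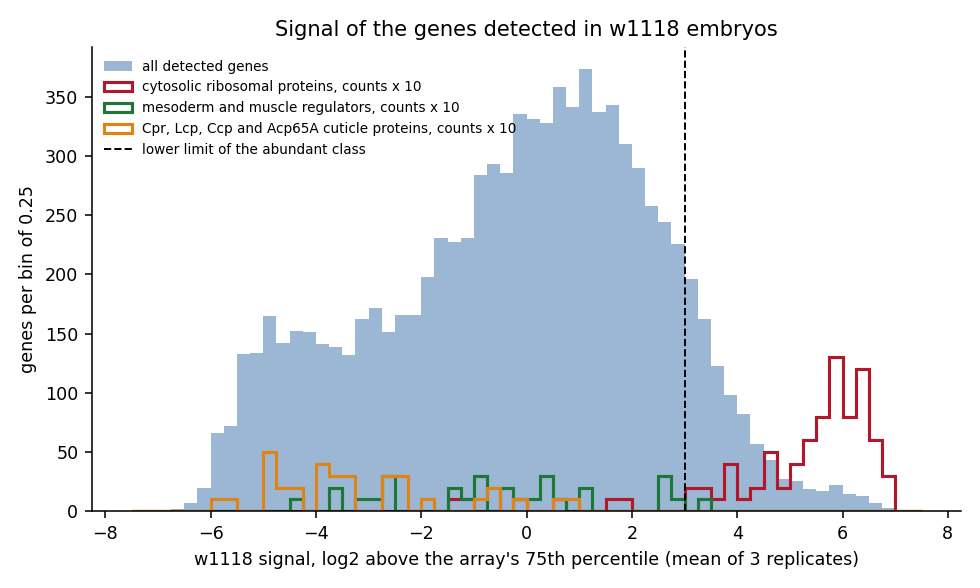
Number of detected genes by mean log2 signal of w1118 above the array's 75th percentile, with 3 gene lists outlined at 10 times their count and the lower limit of the abundant class dashed. All genes spread from −7.05 to 6.96 around a median of 0.11, the ribosomal proteins crowd at the right end and the cuticle proteins lie mostly at the left.

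The detected genes covered a wide range of signal. The brightest gene was RpS25 at 6.96 on the log2 scale and the dimmest CG15452 at −7.05, with signals of 5.91 to 14.6 that lie close to background, and the quartiles lay at −2.03 and 1.74 on the log2 scale. The signal was concentrated: abundant genes held 57.5% ± 1.45 of the summed signal of all detected genes (SD, n = 3), and the 25 brightest held 7.42% ± 0.777. The limit of the abundant class fell in a dense stretch. Just inside it lay goe and CG18754, both at 3.01 on the log2 scale, and just outside lay the proteasome subunit Prosbeta1 and the segment polarity gene en, also at 3.01.

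One property of the array limits every comparison between genes. Probes of the same gene differed far more than replicates did. In the 2879 genes with at least 2 detected probes, the brightest and the dimmest probe were 3.74-fold apart in the median, and 1387 of these genes (48.2%) had probes over 4-fold apart, against a median replicate SD of 0.07 on the log2 scale. The median gene spanned 19.5 percentile points from probe to probe, where each probe is ranked among the detected probes of named genes and not among genes. Most genes, 8789, had a single probe, so their place cannot be checked in this way. A rank here is a rank of signal and not of the number of transcripts.

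**Figure D2:**
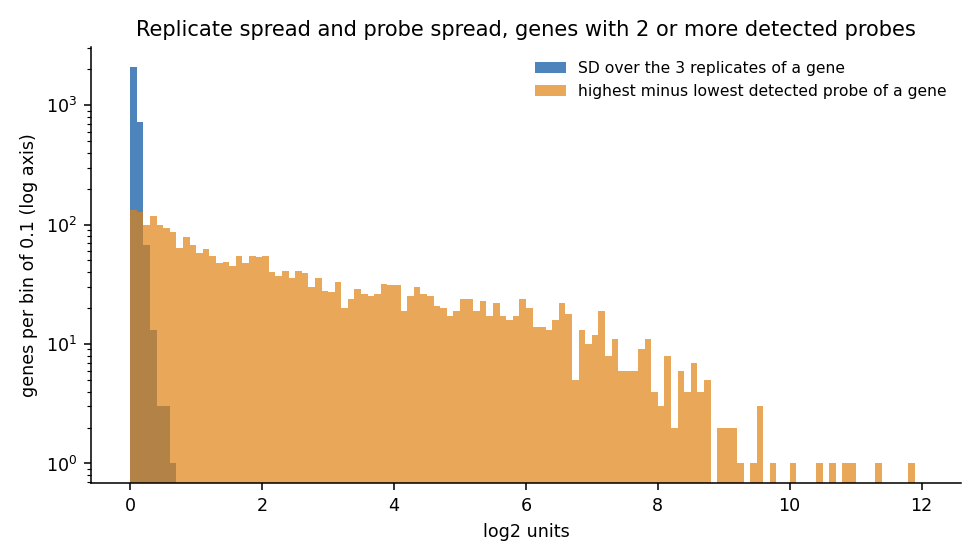
Replicate SD of each gene (blue) and the gap between its brightest and dimmest detected probe (orange), in log2 units, for the 2879 genes with at least 2 detected probes; the count axis is logarithmic. Replicate SDs crowd near their median of 0.07, while the probe gaps reach 11.8.

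Ribosomal protein genes, whose products build the cytosolic ribosome, led the ranking. Of 86 measured, 85 were detected and 79 (91.9%) were abundant, against 6.88% of all genes. They made up 22 of the 25 brightest genes and 56 of the brightest 100, and 14.4% ± 1.31 of the summed signal. RpS25, of the small subunit, ranked first: its signal was 210576, 184804 and 212678 in Cy5 in replicates 1, 2 and 3, and 138831 in Cy3 in replicate 1. RpS3A followed with 180624, 176977 and 190195 in Cy5 and 147454 in Cy3, and RpL37A with 177000, 166815 and 192000 in Cy5 and 157277 in Cy3. Before scaling, all 3 were dimmer in Cy3 than in any Cy5 hybridisation.

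The rest of the 25 brightest were, from the fourth place, RpL27, RpS9, RpL23A, RpL8, RpS30, RpL32, COX2, RpS4, RpL9, RpL5, RpL10, RpL31, RpL19, RpL10Ab, eEF1beta, RpL13A, RpL36, RpL41, RpL29, RpLP1, CG4440 and RpS5b. Their log2 signals ran down to 6.22 for RpS5b. COX2, a mitochondrially encoded subunit of cytochrome c oxidase, stood at 6.52 ± 0.15 and eEF1beta, a translation elongation factor, at 6.39 ± 0.16 (SD, n = 3). CG4440, which has no assigned name, had signals of 113785, 114853 and 117192 in Cy5 and 111204 in Cy3. Neighbours in this list mostly do not differ beyond their SDs, which reach 0.33. Each of the 25 was brighter in replicate 3 than in replicate 1, so these SDs hold a shift that the genes share. RpS25 ranked first in every replicate, and the SDs of the percentiles reached 0.0777, for RpL31.

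Ribosomal protein genes that occur as a pair of copies were found in every class. RpS5b was among the 25 brightest, and RpS15Ab, RpL34a, RpL34b, RpS14a and RpS14b were abundant, between percentiles 97.8 and 99.3; signal may be shared between close copies. RpS10a, RpS19b and RpS28a, which also have a sister gene, lay at percentiles 33.8, 31.9 and 45.1, and the copy RpL10Aa was well above background on no array, with signals of 2.82 to 5.77. RpL26, with a single probe, lay at percentile 59.3 and RpL3 at 77.2. The probes of RpS7 disagreed, one at 6.33 and another at −3.23 on the log2 scale, with a mean at percentile 72.9. RpS29 had 4 probes between 5.47 and 6.09 and 1 at −5.71, the widest gap of any gene. RpS29 was still abundant, at percentile 93.7.

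In the respiratory chain and the proteasome, most paralogues named with a suffix were not detected on every array. All 66 subunits in the list of the respiratory chain and ATP synthase were detected and 33 were abundant, with COX2 and COX1 the brightest of the list and ND-B8 lowest at percentile 10.2. The list was built from name patterns and leaves out the mitochondrial genes CYTB and ATP6, which ranked at 47 and 59, ahead of COX1 at 63, and ATP8, which was above background on 1 array. Of 22 paralogues of these subunits whose names end in L, 2 were detected and 13 undetected; ATPsynepsilonL and COX4L lay at percentiles 20.7 and 9.48. All 32 proteasome subunits were detected and 17 were abundant, with Prosalpha5, of the core particle, at percentile 98.8 and Prosbeta7 at 98.2. Of 16 proteasome paralogues with the suffix T or R, 5 were detected and 9 undetected. Prosalpha1R was the brightest of them, at percentile 75.6.

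Factors for making and folding proteins were also bright. Of 50 translation initiation and elongation factors, 44 were detected and 26 were abundant, with eEF1beta and eEF1gamma at the top. eEF1gamma varied between replicates, with a log2 mean of 6.13 ± 0.41 (SD, n = 3). The undetected members were eIF3d2, eIF4E5, eIF4E7 and eIF4H2, and eIF4E3 was the dimmest detected one, at percentile 2.85. Among chaperonins and heat shock cognates 15 of 16 were detected, with the endoplasmic reticulum chaperone Gp93 at percentile 99.2 and the chaperonin subunit CCT7 at 94.5. Hsc70-1 lay at percentile 1.26 and Hsc70-2 was undetected.

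Genes of dividing nuclei were detected without exception. All 50 cell cycle and DNA replication genes were detected and 16 (32.0%) were abundant; Cdk1, the kinase that drives mitosis, lay at percentile 98.3, geminin, which limits replication licensing, at 98.0, and the origin subunit Orc2 lowest at 28.5. The probes of Orc2 spanned 4.51 log2 units, from −3.73 to 0.78. All 34 chromatin proteins were detected and 15 were abundant, with the high mobility group protein HmgD at percentile 99.2 and ph-d, of the Polycomb group, lowest at 20.5. Of 6 single-copy histone genes 4 were abundant, and the centromeric histone cid was lowest at percentile 25.6. All 25 splicing factors were detected and 14 were abundant, with SF2, an SR protein, at percentile 97.2. Sf3b1, lowest at 46.5, had one probe at 2.68 and one at −2.89 on the log2 scale.

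Mitochondrial ribosomal proteins were all detected but less bright as a list, with a median percentile of 72.4. Of 72, 7 (9.72%) were abundant, near the 6.88% of all genes. mRpS22 and mRpS7 lay at percentiles 94.8 and 94.6 and mRpL37 at 2.47. No enzyme of glycolysis was abundant by the mean of its detected probes. Of 16 measured, 12 were detected, from enolase, Eno, at percentile 84.5 and phosphoglucose isomerase, Pgi, at 83.5 to phosphofructokinase, Pfk, at 14.6. The hexokinases Hex-C and Hex-t1 and the phosphoglycerate mutase copy Pglym87 were undetected. The detected probes of Ald1 spanned 8.10 log2 units, those of Pglym78 6.69, those of Tpi 4.85 and those of Pfk 3.33. The places of these enzymes therefore depend on the probe.

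Cytoskeletal genes split by copy. The actins Act5C, Act42A, Act57B and Act87E lay at percentiles 99.7, 99.0, 98.9 and 98.2; Act88F, of flight muscle, was above background on 3 arrays and Act79B on none. Actin genes are near-identical in their coding parts, so signal may be shared between them. Of 11 tubulins, betaTub56D, at percentile 99.5, and betaTub60D, at 97.5, were abundant. Below the limit, alphaTub84D and alphaTub84B lay at percentiles 88.5 and 86.9. Each has 3 probes, which spanned 6.44 and 5.82 log2 units, so their place depends on the probe. gammaTub37C lay at percentile 12.9, and the testis tubulin betaTub85D was undetected.

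**Figure D3:**
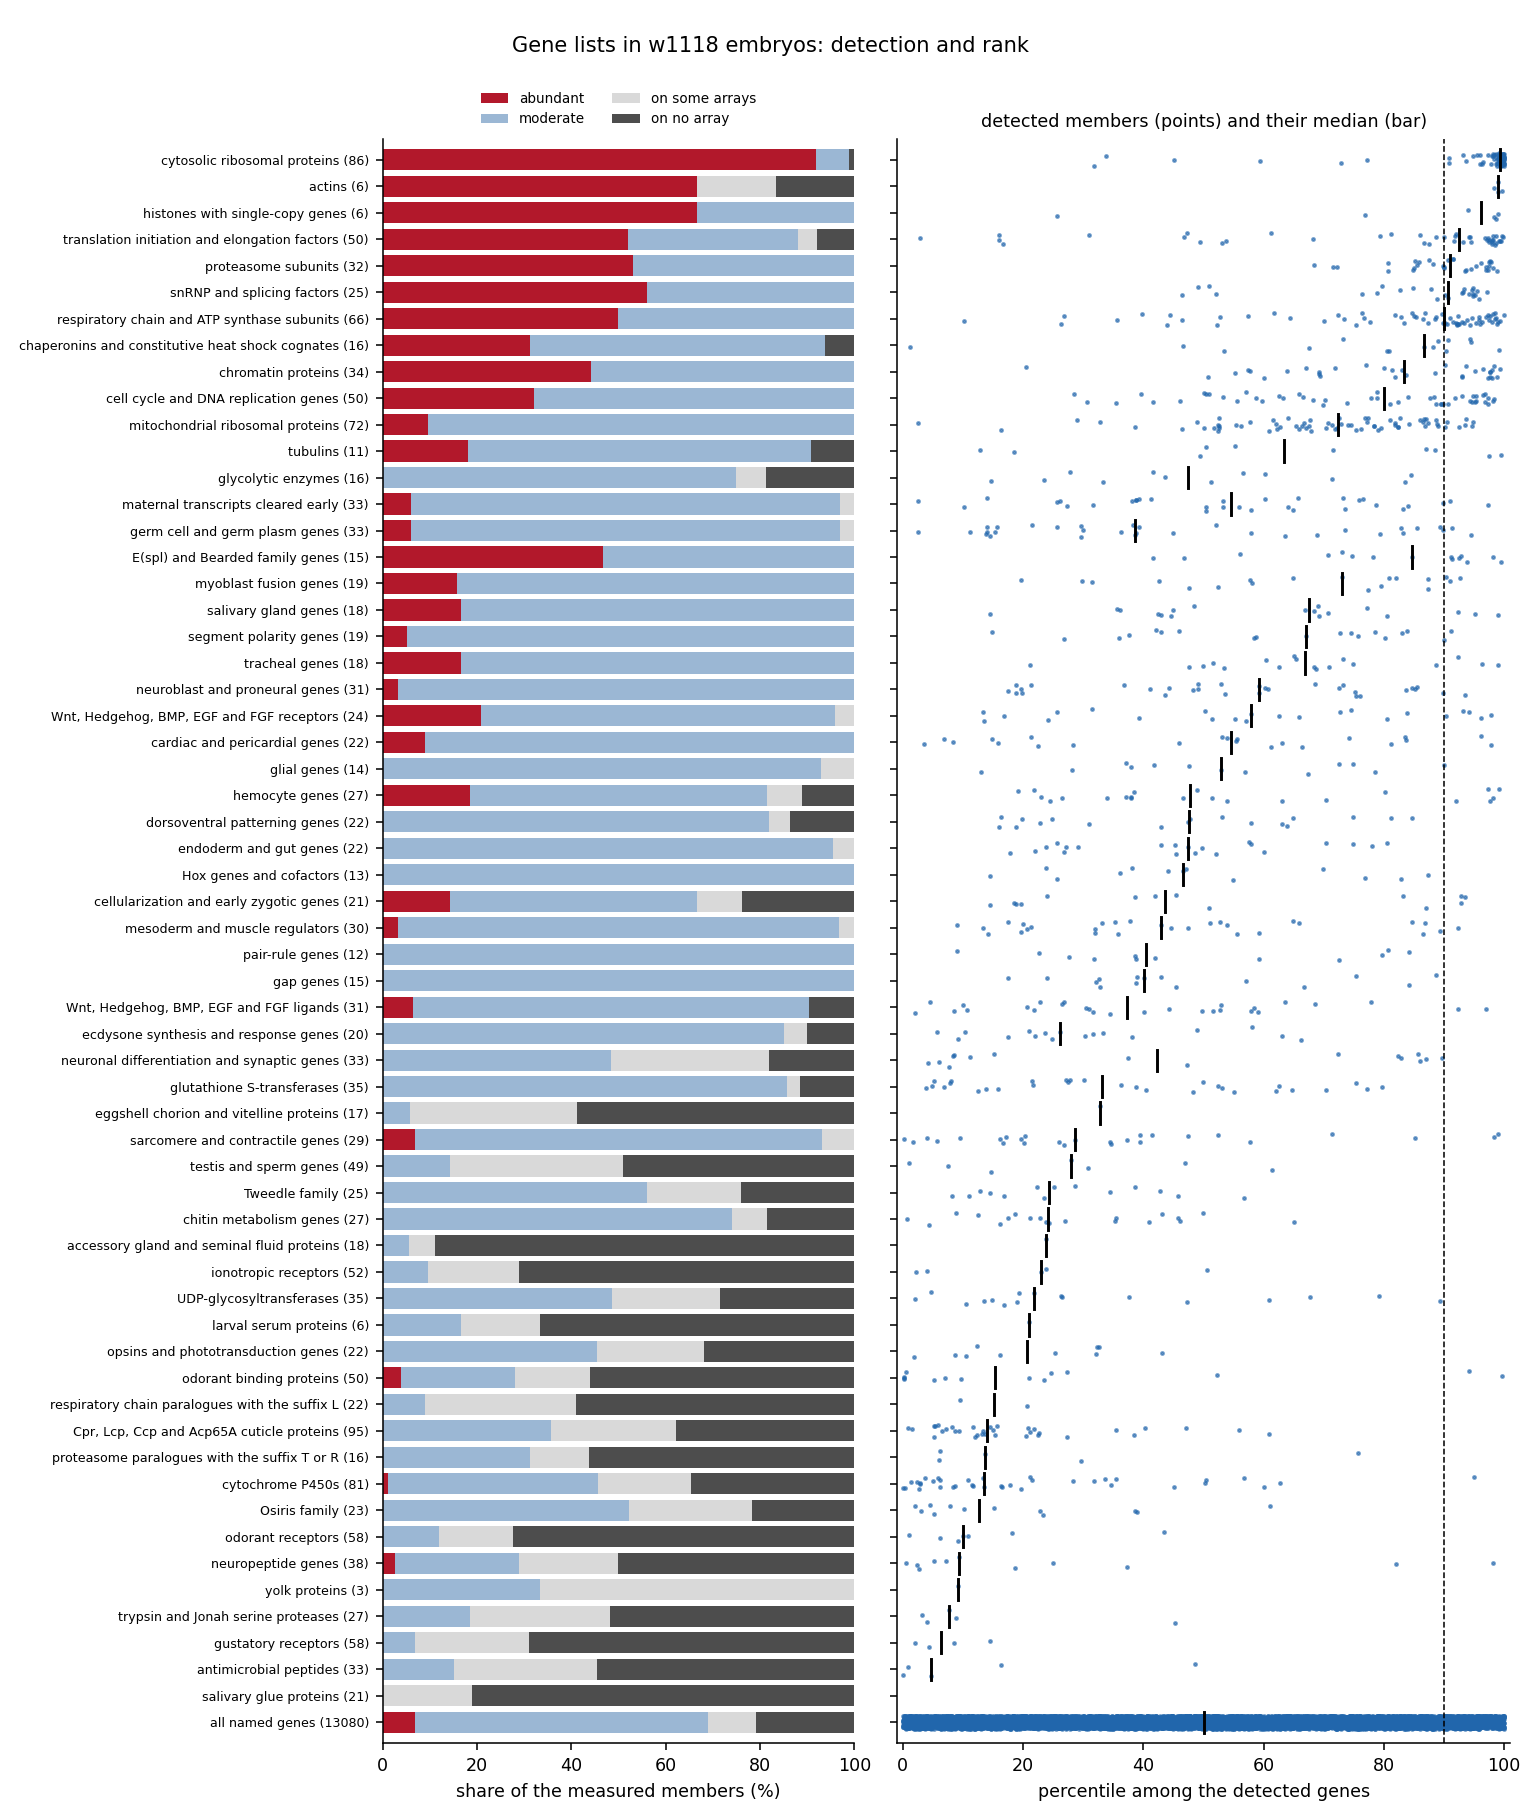
Left, share of the measured members of each gene list that were abundant, moderate, above background on some arrays, or on none; the number measured is in brackets, and all named genes are at the bottom. Right, percentile of each detected member (points) and their median (bar), with the limit of the abundant class dashed; 79 of 86 ribosomal proteins lie right of it, and no gap or pair-rule gene does.

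Patterning genes of the embryo were detected nearly throughout and were abundant in a minority of cases. Across the 19 lists of embryonic patterning, signalling and tissue genes, 302 of 325 genes (92.9%) were detected, against 68.9% of all genes, and 32 were abundant (9.85%), against 6.88% of all genes. The 13 housekeeping lists had 455 of 470 detected and 222 abundant. These groups were assembled by what is known of the genes, and their counts describe the array without a test.

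The segmentation genes were all detected. The 15 gap genes, which divide the early embryo into broad domains, ran from kni at percentile 88.7 and slp1 at 84.1 to Kr at 17.5. The 12 pair-rule genes, the next tier, ran from slp1 and opa, at 80.7, to eve at 9.04. eve gave 82.9, 80.9 and 68.2 in Cy5 and 60.5 in Cy3, and Kr gave 208, 192 and 173 in Cy5 and 144 in Cy3, so both were dim on every array. Of 19 segment polarity genes, which hold segment borders at this age, ci was abundant at percentile 91.1 and en lay just under the limit of that class, while H15 was lowest at 14.7. ci rests on 1 of its 2 probes, and lay at percentile 22.0 with both counted.

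All 13 Hox genes and cofactors were detected and none was abundant. Ubx, which specifies the hind thorax and front abdomen, was the brightest at percentile 87.4, with signals of 11200, 10556 and 9250 in Cy5 and 10444 in Cy3. A second Ubx probe was not above background on any array, and with both counted Ubx lay at percentile 21.6 and was not the brightest of the list. The cofactor exd lay at percentile 82.8, and Scr, of the labial and first thoracic segments, was lowest at 14.4. Of 22 dorsoventral genes, 18 were detected (81.8%), against 68.9% of all genes. The mesodermal repressor sna, at percentile 84.7, and the dorsal GATA factor pnr, at 81.2, were brightest. The ventral midline gene sim was lowest at 16.1.

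Signalling components were nearly all detected. Of 31 ligands of the Wnt, Hedgehog, BMP, EGF, FGF, Notch and related pathways, 28 were detected and 2 were abundant, spi, an EGF receptor ligand, at percentile 96.9 and gbb, a BMP, at 92.3. jeb, a ligand of visceral mesoderm, was lowest at percentile 2.00. Of 24 receptors of these and related pathways, 23 were detected and 5 (20.8%) were abundant; Tl, the Toll receptor, lay at percentile 97.7, the Wnt receptor fz2 at 96.1 and the BMP receptor wit lowest at 13.3. The E(spl) and Bearded genes, known targets of proneural and Notch signalling, were bright: all 15 genes of the E(spl) and Bearded families were detected and 7 (46.7%) were abundant, led by Tom at percentile 99.4 and BobA at 98.1. Tom, a Bearded family inhibitor of Notch signalling, gave 84899, 82976 and 85245 in Cy5 and 82600 in Cy3, within a narrow range on the 4 arrays. E(spl)m4-BFM was lowest at percentile 41.7.

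**Figure D4:**
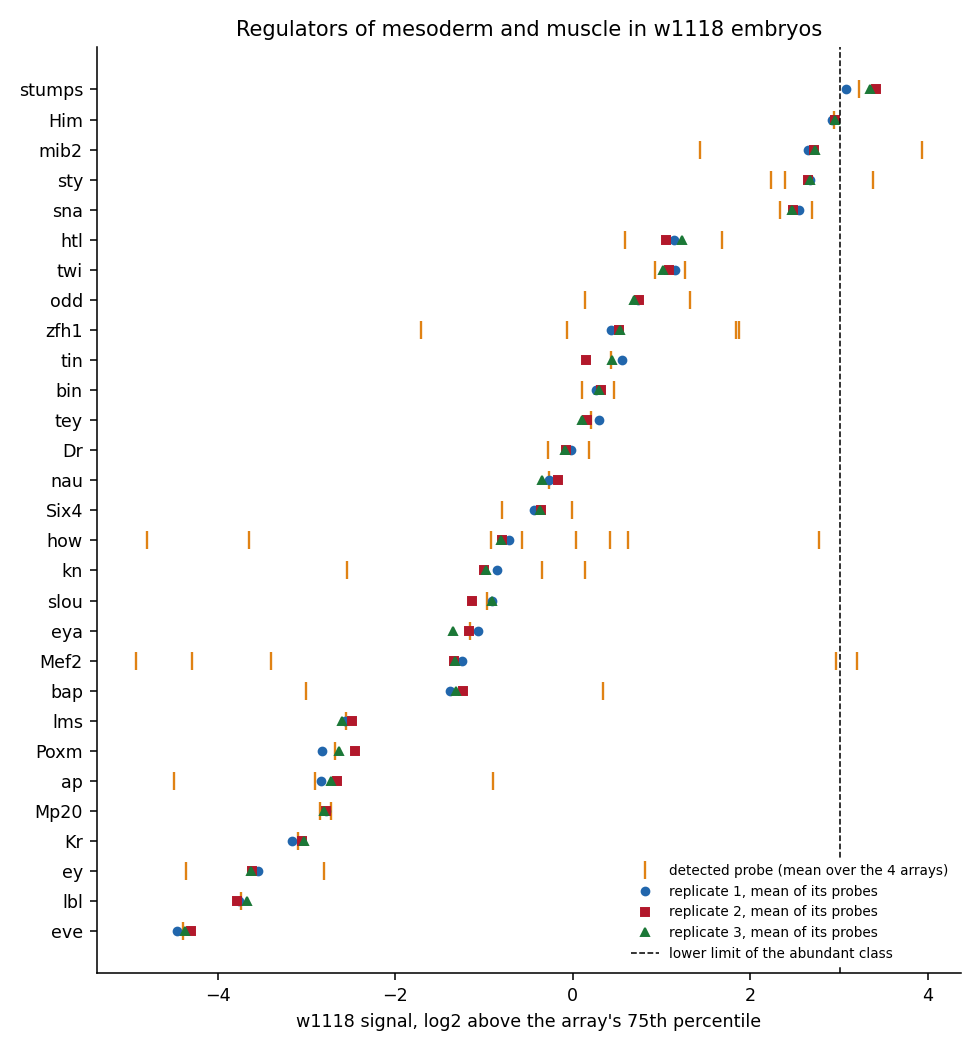
Log2 signal above the array's 75th percentile for the 29 detected regulators of mesoderm and muscle; points are the 3 replicates (mean of a gene's probes), ticks its single probes averaged over the 4 arrays, and the dashed line the limit of the abundant class. Replicate points nearly coincide, while the ticks of Mef2 and how spread over more than 7 log2 units.

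Of 30 regulators of mesoderm and muscle, 29 were detected and 1, stumps, was abundant. stumps, an adaptor of the FGF receptor in migrating mesoderm, lay at percentile 92.3 with 14000, 16905 and 14400 in Cy5 and 12135 in Cy3. Him, which holds muscle progenitors undifferentiated, followed at percentile 89.3, mib2 at 86.8, the FGF antagonist sty at 86.6 and sna at 84.7. The FGF receptor htl and the mesodermal determinant twi lay at percentiles 65.9 and 64.9, odd at 59.2 and zfh1 at 55.6. The dimmer members included identity genes of single muscles and of visceral mesoderm: nau at percentile 44.5, kn at 35.8, slou at 35.3, bap at 31.9, lms at 21.3, Poxm at 20.6, lbl at 13.2 and eve at 9.04. Others of these kinds lay higher, bin at percentile 52.7, tey at 51.0 and Dr at 47.4. bin rests on 2 of 3 probes and lay at percentile 29.6 with all counted. The 2 probes of bap lay 3.34 apart on the log2 scale, so its place depends on the probe. Poxm rests on 1 of 2 probes and lay at percentile 5.04 with both counted. The ladybird gene lbe, next to lbl, was above background on 1 array, with signals of 8.66 to 12.3.

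tin, which the heart and the dorsal mesoderm need, gave 2404, 1756 and 1920 in Cy5 and 2158 in Cy3. The log2 mean of tin was 0.38 ± 0.21 and its percentile 53.9 ± 3.08 (SD, n = 3), against a median SD of 0.08 for all detected genes. Replicate 1 was the highest and replicate 2 the lowest. tin has 1 probe.

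Mef2, the muscle transcription factor, shows what the probe choice does. The mean of Mef2 lay at percentile 32.0 ± 0.457 (SD, n = 3), but this averages 5 detected probes in separate groups. A pair of probes designed on transcript CG1429-RD was bright: one gave 15395, 14020 and 11593 in Cy5 and 15459 in Cy3, and the other 11100, 12300 and 11500 in Cy5 and 12604 in Cy3. The other detected probes, designed on CG1429-RF and CG1429-RB, lay between 48.3 and 215 on all arrays, and a sixth, on CG1429-RE, was above background on none. By its brightest probe Mef2 lay at percentile 87.3. The RNA-binding protein gene how was similar, with 8 detected probes between −4.80 and 2.77 on the log2 scale.

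Other tissue programmes had a like spread of signal. All 22 cardiac and pericardial genes were detected, from Tl and the adhesion protein Nrt, at percentile 96.2, to the sulfonylurea receptor Sur at 3.56. All 19 myoblast fusion genes were detected and 3 (15.8%) were abundant, against 68.9% and 6.88% of all genes. The abundant ones included Arf6 at percentile 92.6 and the adhesion receptor hbs at 90.9. hbs has a probe that was not detected on all arrays and lay at percentile 55.6 when detection on 1 array was enough. All 31 neuroblast and proneural genes were detected, with the zinc finger factor zld at percentile 93.4 and mira, a carrier of cell fate determinants, at 89.9. Glial genes were detected in 13 of 14 cases, led by nrv2 at percentile 89.9 and moody at 78.5, with alrm at 12.9.

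All 18 tracheal genes were detected, and rib, a factor for tube elongation, lay at percentile 98.9, Tsf2, a septate junction protein, at 96.2 and verm, a chitin deacetylase of the later tracheal lumen, lowest at 21.1. rib also led the 18 salivary gland genes, all detected, ahead of the secretory channel subunit Sec61alpha at percentile 95.1. Of 22 endoderm and gut genes, 21 were detected, with fkh at percentile 80.6, peb at 78.1 and Alp4 at 17.7. Of 27 hemocyte and basement membrane genes, 22 (81.5%) were detected and 5 (18.5%) abundant, against 68.9% and 6.88% of all genes. The abundant ones were the laminin chains LanA, LanB2 and LanB1, the matrix protein Ppn and Nplp2, which is also in the list of neuropeptides. LanA gave 68100, 63366 and 57700 in Cy5 and 58709 in Cy3, at percentile 99.0. The peroxidasin gene Pxn, a hemocyte marker, had a mean at percentile 19.2, with probes between −4.91 and 0.39 on the log2 scale.

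The markers chosen for neuroblasts, mesoderm, segmented ectoderm, trachea, endoderm, hemocytes, germ cells and glia were all detected. They ran from en, just under the limit of the abundant class, and mira, at percentile 89.9, down to Pxn. Hemocytes were represented by Pxn and crq alone. Other genes of the hemocyte list were not detected on every array: He, eater and Hml were undetected, and NimC1 and lz were above background on some arrays only. Detection alone does not show that a tissue was present, because 68.9% of all genes were detected. All 7 markers chosen for structures later than this age were detected too. The germ cell markers vas, nanos and pgc lay at percentiles 29.9, 25.6 and 39.3.

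Genes whose messages the mother loads into the egg were nearly all detected. Because no other age was sampled, maternal messages cannot be told apart from those made by the embryo. Of 33 genes listed as maternal transcripts cleared early, 32 were detected (97.0%), against 68.9% of all genes, and trk was above background on some arrays only. The list is mixed: it also holds CycB, CycA, gro and Hsp83, at percentiles 89.8, 84.0, 75.9 and 73.2. Clearance of its members was not measured, so the count does not show that cleared messages persist. stg, the phosphatase that triggers mitosis and is also made by the embryo, lay at percentile 97.3, with 23300, 32754 and 30000 in Cy5 and 25544 in Cy3. grau lay at percentile 90.9, and bcd, the anterior determinant, at 73.6, with 5087, 4925 and 4227 in Cy5 and 5008 in Cy3. osk, which nucleates the germ plasm, lay at percentile 38.7, and the serine protease gene gd lowest at 2.55 ± 2.71 (SD, n = 3). Of 33 germ cell and germ plasm genes 32 were detected, with me31B, a translational repressor, at percentile 94.5 and tud, a germ plasm component, at 91.3. me31B and tud also act outside the germ line.

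Genes of cellularization and of early expression in the embryo were detected in part. Of 21, 14 were detected (66.7%), against 68.9% of all genes, and 5 were undetected: nullo, sisA, scw, Z600 and CG14427. zen, of the dorsal amnioserosa, and bnk were above background on some arrays only. nullo, needed to form the cellular blastoderm, gave 2.72, 2.91 and 3.75 in Cy5 and 5.66 in Cy3, close to the negative controls, whose array medians were 2.58 to 5.91. Others of the list were bright, zld at percentile 93.4, slam, needed for the cleavage furrows, at 92.8 and bnb at 92.7, and term was the lowest detected at 14.5. The list is mixed, and zld is also among the neuroblast and proneural genes. No other age was sampled, so no change with time can be read from these values.

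Genes of muscle fibres, which form later, were mostly dim but detected. Of 29 sarcomere and contractile genes, 27 were detected, with a median percentile of 28.6, against 50 for all detected genes by construction. Apart from the actins Act57B and Act87E, none was abundant. The myosin heavy chain gene Mhc lay at percentile 39.5, with 1003, 996 and 893 in Cy5 and 1047 in Cy3; Mlc1, a myosin light chain, lay at 41.4, Prm, paramyosin, at 26.8 and sls, the titin-like protein, at 19.6, or at 39.3 by its brightest probe. TpnC41C, a troponin C, was at percentile 0.139. Mhc gave a signal between 530 and 2350 with each of its 4 probes in replicate 1.

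Synaptic genes divided into those detected and those not. Of 33 neuronal differentiation and synaptic genes, 16 were detected, 11 were above background on some arrays and 6 on none. The brightest were Syx1A and Syt1 at percentiles 89.6 and 87.1, and elav, the pan-neuronal RNA-binding protein, at 86.1. Syx1A, a membrane fusion protein, acts in all cells. The active zone protein brp gave 16.1 to 20.5 on the 4 arrays, and the sodium channel para and the microtubule protein futsch were undetected. Syt1 rests on 1 of 2 probes and lay at percentile 21.4 with both. The median over detected members, 42.3, fell to 13.5 without replicate 1, where 22 members were detected, and was 65.1 by the brightest probe. With replicate 1 kept, it was 12.9 on the Cy5 arrays alone and 13.9 with detection on 3 arrays, again over 22 members.

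Cuticle and chitin genes, which are used when the embryo secretes its first cuticle, were detected in part. Of 95 Cpr, Lcp, Ccp and Acp65A cuticle proteins, 34 (35.8%) were detected, against 68.9% of all genes, and 36 were undetected. Cpr65Ax1 lay at percentile 60.9, Lcp65Ag1 at 55.9 and Cpr31A at 0.838. Lcp65Ag1 and Lcp65Ag2 are close copies, and signal may be shared between them. Of 25 Tweedle genes 14 were detected (56.0%), with TwdlM at percentile 56.7 and TwdlD at 45.7, and TwdlO at 8.11. TwdlM lay at 33.1 with all its probes counted. Of 23 Osiris genes 12 were detected (52.2%), with Osi6 at percentile 61.0, Osi20 at 38.9 and Osi24 at 1.96. Among 27 genes of chitin metabolism 20 were detected (74.1%), a share slightly above that of all genes, from Cht2 at percentile 65.1 and serp at 49.9 to Cht8 at 0.627.

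Genes of adult and larval sense organs were mostly undetected. Of 58 odorant receptors, 7 were detected and 42 undetected, against 68.9% and 20.9% of all genes. Of 58 gustatory receptors 4 were detected and 40 undetected, and of 52 ionotropic receptors 5 and 37. Or19a at percentile 43.4 and Ir76a at 50.6 were the brightest of their families, and Gr2a led the gustatory receptors at 14.4. Ir76a had a second, dimmer probe and lay at percentile 22.4 with both. Orco, the partner of most odorant receptors, gave 3.78, 2.70 and 3.37 in Cy5 and 5.84 in Cy3 and was above background on none. Of 22 opsin and phototransduction genes 10 were detected, the brightest being the calphotin gene Cpn at percentile 43.1 and Galphaq at 32.5.

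The odorant binding proteins held exceptions. Of 50, 14 were detected and 28 undetected, but Obp99a lay at percentile 99.6, the 38th brightest gene of all, and Obp73a at 94.1. Obp99a gave 96327, 102356 and 102587 in Cy5 and 87527 in Cy3, the mean of 2 bright probes that lay 0.83 apart on the log2 scale. Obp73a rests on 1 of 2 probes and lay at percentile 24.5 with both counted. The third, Obp56a, was at percentile 52.2.

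Reproductive and larval products were mostly undetected. The 21 salivary glue proteins had no member detected on every array, with 17 on none, so their level is bounded only by the background. Of 18 accessory gland and seminal fluid proteins 1, Acp95EF, was detected at percentile 23.7 and 16 were undetected, and of 17 eggshell proteins 1, Cp15, was detected at 32.7 and 10 undetected. The yolk protein gene Yp3 lay at percentile 9.19, with Yp1 and Yp2 above background on 3 and 2 arrays. Of 49 testis and sperm genes, 7 were detected and 24 undetected, with mia at percentile 61.3 and Mst85C at 46.9. Of 6 larval serum proteins, Lsp1gamma was detected at percentile 21.0 and 4 were undetected.

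Immune, digestive and detoxifying families were mixed. Of 33 antimicrobial peptides 5 were detected, Drsl5 at percentile 48.5 and IM33 at 16.4 above the rest, and 18 were undetected. Of 27 trypsins and Jonah proteases 5 were detected, with Try29F at percentile 45.3. Of 81 cytochrome P450 genes 37 were detected (45.7%), against 68.9% of all genes, and 28 were undetected. Cyp6d5, at percentile 95.0, was the abundant member. Of 35 glutathione S-transferases 30 were detected, led by GstE3 at percentile 79.6 and GstE13 at 77.2, and of 35 UDP-glycosyltransferases 17, led by Ugt35D1 at 89.2 and Ugt316A1 at 79.1. Of 38 neuropeptide genes 11 were detected; Nplp2 lay at percentile 98.1, with 38700, 41124 and 33600 in Cy5 and 36120 in Cy3, and Ilp4, an insulin-like peptide, at 82.0. Of 20 genes of ecdysone synthesis and response 17 were detected, none abundant, with E(bx) at percentile 66.2 and Blimp-1 at 63.1 ± 5.56 (SD, n = 3).

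Together the 25 lists of later, non-embryonic or detoxifying genes had 286 of 873 genes detected (32.8%), against 68.9% of all genes, 398 undetected and 6 abundant. The 6 were the actins Act57B and Act87E, Obp99a, Obp73a, Cyp6d5 and Nplp2. All 7 markers chosen for structures later than this age, Mhc, Mlc1, Prm, TwdlD, TwdlL, Cpr51A and Lcp65Ag2, were detected, at percentiles 26.8 to 47.1. Of 10 markers of tissues that embryos lack, 2 were detected, ninaE at percentile 1.89 and Yp3, while Cp38, Sgs3, Lsp2, Orco and Acp26Aa were undetected.

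Most abundant genes belonged to no list. Of the 900, 640 were outside all 59 lists, and 142 of these have only a CG number for a name. The brightest of them, chosen after their values were seen, included tsr, the actin-severing cofilin, at rank 30, porin, the mitochondrial outer membrane channel, at 34, Ip259 at 36, the mitochondrial CYTB at 47, 14-3-3epsilon at 56 and NimC4, a phagocytic receptor, at 64. Among all genes, those named only by a CG or CR number were detected in 54.6% of 5413 cases, and those with other names in 79.0%.

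Detection was also uneven along the chromosomes. Where a gene was undetected, the next measured gene on the same chromosome was undetected in 41.8% of cases, against 20.9% of all genes. Where a gene was abundant, the next was abundant in 10.7%, against 6.88%. The longest undetected stretch held 12 genes, from CG4960 to alpha4GT2 with Mst57Da, Mst57Db and Mst57Dc, which encode accessory gland peptides, between them. The longest abundant stretch held 5, eEF5, RpL12, RpL39, Rap2l and yki. Members of one family often lie side by side, and probes for close copies can share signal; their part in these shares was not tested.

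**Figure D5:**
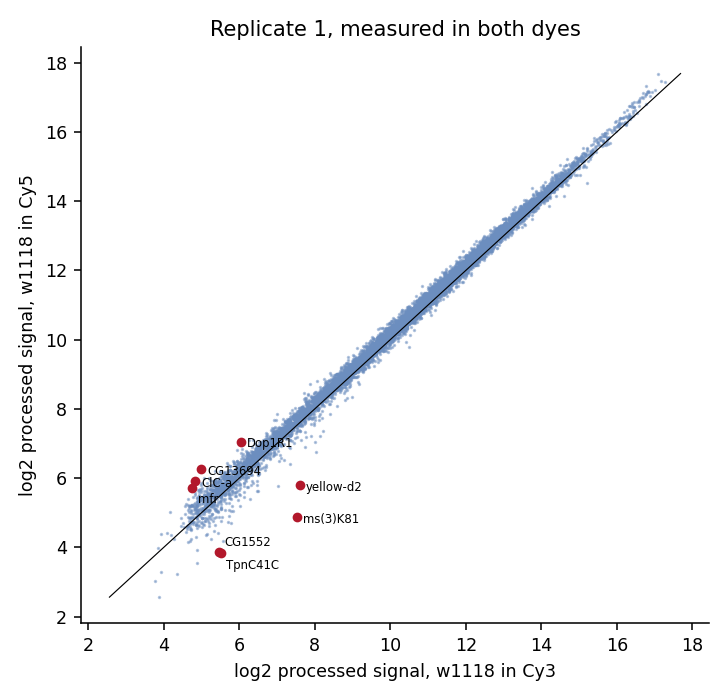
Log2 processed signal of w1118 replicate 1 in Cy5 (vertical) against Cy3 (horizontal) for the 9009 detected genes, with the line of equality; the 8 genes with the widest gaps either way are named. The points run along the line and slightly above it, and the named genes lie in the dim part of the plot.

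Replicate 1 was measured in both dyes, so the gap between its 2 arrays mixes the dye with the error of labelling and hybridisation. Between the dyes the median absolute gap was 0.10 on the log2 scale and 23 genes differed by more than 1. Between Cy5 arrays of different replicates the median gap was 0.07 to 0.12. The widest gap was that of ms(3)K81, a sperm telomere protein gene, with 29.1, 30.1 and 29.3 in Cy5 and 185 in Cy3, followed by yellow-d2, with 55.6, 63.9 and 56.6 in Cy5 and 196 in Cy3, TpnC41C and CG1552. In the opposite direction CG13694 gave 77.0 in Cy5 and 32.0 in Cy3 in replicate 1, ahead of ClC-a, Dop1R1 and mfr. All 8 were dim, between percentile 0.139 for TpnC41C and 8.90 for yellow-d2.

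The largest SD over replicates was that of ninaE, at 0.83 on the log2 scale, followed by Reepl1 (0.76), ms(3)K81 (0.73) and CG4390 (0.71). In ms(3)K81 the replicates were alike in Cy5, and the SD comes from the Cy3 value averaged into replicate 1. CG4390 was the brightest of these, with 866, 391 and 311 in Cy5 and 813 in Cy3, high in both hybridisations of replicate 1 and lower in replicates 2 and 3. ninaE, the major opsin of the adult eye, gave 49.5, 25.7 and 22.0 in Cy5 and 89.9 in Cy3 with the probe that was detected, and its other 3 probes were well above background on 2 arrays or on none.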

How the data were processed

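Agilent two-colour arrays were read with Agilent Feature Extraction 10.1.1.1, per the file headers. The deposited intensity per spot is the processed signal, which that software background-subtracted and dye-normalized with both channels, per the file headers; the authors' normalized value table was not used. From these intensities the w1118 channel was taken (Cy5 on 3 arrays, Cy3 on 1), control spots and flagged outlier spots were left out, log2 values of a probe's spots were averaged, and each array's 75th percentile was subtracted. A probe was detected if well above background on all 4 arrays. A gene was the mean of its detected probes, and the 2 arrays of replicate 1 were averaged first, giving n = 3. That number limits the precision. The 3 replicates were isolated independently, per the labels' protocols. No group was compared and no test was run. Alternatives varied the detection rule, scaling, background correction, probe choice, flagged spots and replicates.

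Of 32162 probes, 19535 were named through RefSeq's locus tags, synonyms or accessions, which gave 13080 genes. Names and the order of neighbouring genes were taken from RefSeq's table for assembly Release 6, and no coordinates. The 59 gene lists came from textbook knowledge and symbol patterns, and the genes, lists and rules were chosen with earlier results of these data known. The list memberships of ND-MNLL, nullo and Lsp1beta, and the symbol of nanos, were corrected after values were seen. The text names the 25 brightest genes, the 2 brightest and the dimmest detected member of each list, abundant members of the later lists and undetected housekeeping members, the mesoderm list, the genes at the limit of the abundant class, and those with the widest dye gap or replicate SD; other genes were chosen after their values were seen. The calculation of detection calls and ranks was checked on simulated data in which probes of a gene differed only by small noise. That check says nothing about the spread between real probes of a gene. Python 3.11.15, pandas 2.3.3 and numpy 2.4.6 were used, and limma 3.58.1 in R 4.3.3 for a second background correction. A description of promoters and protein lengths was planned and not run, because no sequences were used here. One gene that the naming rule selects is not reported here.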

Additional observations from a re-analysis of the deposited data

Results flagged for a closer look

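Signal in the w1118 channel also came from probes whose identifiers matched no gene symbol. Of 12627 such probes, with 12049 identifiers, 4204 identifiers were detected on every array (34.9%), against 68.9% of named genes. Their median log2 signal was −2.47, against 0.11 for named detected genes, and 165 lay above the lower limit of the abundant class. They were left out of the ranking, and what they measure was not tested.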

How the results depend on the processing

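Ranks describe probe signal at 3 replicates, and values near background have an uncertain order. The count of detected genes was 9411 with detection asked on 3 arrays, 10351 on 1, and 9353 on the Cy5 arrays alone, and 9010 to 9371 when one replicate was left out. The count of undetected genes was 2729 to 3192 in these settings, and 8631 once identifiers without a gene symbol were added, because those identifiers join the count. Of the 900 abundant genes, 886 to 892 stayed abundant when 1 replicate was left out. After normexp background correction of the median signals 871 stayed, and after quantile normalization 898. Without scaling all 900 stayed, but the scaling shifts every probe of an array alike, so leaving it out could not change the ranks. Only 658 stayed abundant when each gene was taken from its brightest probe. That choice moved 14 of 58 list medians by more than 5 points. With detection on 1 array 28 medians moved as far, and 41 with identifiers without a symbol ranked too. There were 6 such medians each with detection on 3 arrays, on the Cy5 arrays alone and without replicate 1, where that of the neuronal list was 13.9, 12.9 and 13.5, against 42.3; leaving out replicate 1 also removes the Cy3 array. Without replicate 3 the median of testis genes was 22.1, against 27.9. The order of ribosomal proteins above mesoderm regulators above cuticle proteins held in all 13 settings tried, of which the one without scaling could not change it. Among named genes, Mef2 went to percentile 87.3 by its brightest probe, how to 83.0, Pxn to 46.1 and Sf3b1 to 81.3, and Pfk to 23.8, or to 7.20 with all its probes. The dimmest members named, such as TpnC41C, Hsc70-1, gd and jeb, moved by over 1.5 times in several settings. No paired analysis was possible because only 1 group was described.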

Other observations

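The 10 spike-in control probes, which report RNAs added in known amounts, were detected on all 4 arrays. Their signals in the w1118 channel ran from 338 to 59950 on the Cy5 array of replicate 1. On the Cy3 array the same probes stood in another order, from 169 to 25284, and the amounts added to each channel are not given in the sources used here, so they were not used to scale the signal. Within an array, the spots of one spike-in probe differed by an SD of 0.06 to 0.08 on the log2 scale.

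Few RNAs that are not messages were on the array. Of 63 long non-coding RNA genes 32 were detected (50.8%), of 72 pseudogenes 31 (43.1%) and of 7 antisense genes 1, against 69.1% of 12912 protein-coding genes. The 5 small nuclear RNA genes and the 5 small nucleolar RNA genes were all detected.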
